A study of Mus musculus with 8 samples.

Results

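The 10 genes described here belong to the cohesin cycle and were measured in mouse embryonic fibroblasts: the ring genes Smc1a, Smc3, Rad21, Stag1 and Stag2, the release factor gene Wapal (now named Wapl), the acetyltransferase genes Esco1 and Esco2, and Pttg1 and Espl1, which encode securin and separase. They were taken by name, and all 10 were found among the 30419 gene names of the count table and had enough counts to be tested. Cells were early-passage fibroblasts from embryos of embryonic day 13.5, either WT (DINO+/+) or DINO mutant (DINO loxP/loxP), where Dino is a p53-induced long noncoding RNA gene beside Cdkn1a. Cells of each genotype were kept for 8 h in vehicle (control) or in doxorubicin at 0.2 µg/mL, a topoisomerase poison that breaks DNA. Every group had n = 2 libraries, named A and B. The labels name no Cre for the loxP allele, and the level of Dino was not analysed here. They do not say whether A and B came from separate embryos or cultures, so p-values measure the spread between libraries, which may be technical.

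Cohesin is a ring of SMC1, SMC3 and the kleisin RAD21, with a STAG protein bound to the kleisin, that holds sister chromatids together and shapes chromatin loops. ESCO1 and ESCO2 acetylate SMC3 and so make cohesion lasting, ESCO2 mainly during DNA replication, while WAPL opens the ring. At anaphase the anaphase-promoting complex destroys securin, and the freed protease separase cuts RAD21. Cohesin also gathers at DNA breaks and takes part in their repair. In dividing fibroblasts the RNAs of ESCO2, securin and separase are known to vary through the cell cycle.

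Library totals ran from 25482805 to 33285171 counts, and a count of 0 allows up to 0.0880 to 0.120 CPM (counts scaled to library size) in a library, which covers counting error only. The damage response was present in both genotypes. Mdm2 was at 136 ± 5.32 CPM in WT control and 1158 ± 64.6 CPM in treated WT libraries, and 140 ± 6.53 and 1051 ± 20.9 CPM in mutant libraries (mean ± SD, n = 2). Cdkn1a went from 12.6 ± 1.76 to 69.3 ± 4.48 CPM in WT and from 8.98 ± 0.526 to 50.8 ± 1.28 CPM in mutant libraries. Mdm2 was not called between the genotypes. Cdkn1a was called lower in mutant than in WT libraries, in control (log2 fold change -0.49 ± 0.11, edgeR adjusted p = 0.00827) and under doxorubicin (-0.45 ± 0.09, adjusted p = 0.00231). The difference between its responses was not called (0.05 ± 0.14). All 9 fibroblast markers were detected in each library, with a summed level between 3804 and 4521 CPM. With doxorubicin 4 of the 9 were called lower in each genotype, among them Pdgfra (-1.90 ± 0.10 in WT and -1.81 ± 0.10 in mutant cells, log2) and Pdgfrb (-1.49 ± 0.14 and -1.79 ± 0.14), and 3 in WT and 1 in mutant cells were called higher. The 7 macrophage and leukocyte markers summed to 20.9 to 22.3 CPM in WT control, 31.9 to 33.5 in treated WT, 27.6 to 28.0 in mutant control and 32.0 to 36.7 CPM in treated mutant libraries. The 4 endothelial markers summed to 2.08 to 2.96, 6.63 to 11.1, 1.34 to 1.73 and 5.68 to 5.85 CPM in the same order. Tek alone among them was called with doxorubicin, averaging 0.977 CPM in WT control and 7.52 CPM in treated WT libraries. In mutant control and treated libraries Tek averaged 0.427 and 4.49 CPM. Kdr and Cdh5 were not called in either genotype, and Pecam1 had too few counts to be tested. Epithelial markers, 4 in number, summed to 0.344 to 0.813 CPM over all libraries. The 4 germ cell markers summed to 5.90 to 10.9 CPM, with Pou5f1 at 0 counts in all 8 libraries. The part of these other cells in the results was not tested.

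The promoters of the falling members are shown first, since several members fell together with doxorubicin. RefSeq promoter windows (build GRCm38.p6) were found for 6 of the 10 genes, and for Smc1a, Smc3, Stag1 and Espl1, 4 of the members that fell in WT cells, a stretch of 120 bases is printed 5′ to 3′. Capitals mark matches to the searched motifs on either strand: CCAAT (the NF-Y box, ATTGG on the other strand), TTTGAA and TTCGAA (the cell cycle homology region), and the E2F-like TTCCCGC, TTTGGCGC and TTTCGCGC.
Smc1a: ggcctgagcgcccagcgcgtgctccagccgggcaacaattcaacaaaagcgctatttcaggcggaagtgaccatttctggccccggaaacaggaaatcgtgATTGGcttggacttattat
Smc3: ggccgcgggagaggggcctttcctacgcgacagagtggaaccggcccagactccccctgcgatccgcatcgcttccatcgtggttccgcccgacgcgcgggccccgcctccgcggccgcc
Stag1: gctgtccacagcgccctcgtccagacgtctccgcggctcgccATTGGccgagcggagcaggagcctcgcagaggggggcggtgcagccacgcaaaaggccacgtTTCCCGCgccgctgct
Espl1: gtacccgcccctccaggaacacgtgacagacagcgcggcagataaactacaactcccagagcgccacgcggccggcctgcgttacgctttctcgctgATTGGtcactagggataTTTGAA
These stretches lie at chrX:152016308-152016427, chr19:53600276-53600395, chr9:100643328-100643447 and chr15:102296152-102296271, all on the + strand. The first 3 end at the base before the RefSeq start. The Espl1 stretch ends 22 bases before it, and its last 6 bases fall in an exon of another GENCODE transcript.

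Over the 250 bases before the start, CCAAT was found in the windows of Smc1a, Stag1, Espl1 and Wapl and not in those of Smc3 or Pttg1, against 33.8% of 32851 mouse promoter windows. TTTGAA was found in the window of Espl1 alone among the 6 genes (16.0% of all windows), and TTCCCGC in that of Stag1 alone (3.82%). TTCGAA, TTTGGCGC and TTTCGCGC, present in 1.34%, 0.417% and 0.256% of windows, were in none of the 6. The Pttg1 window overlapped exons of longer Pttg1 transcripts over 195 of its 250 bases, so it is not printed. The matches describe these letters only.

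The first comparison asked how the genes respond to doxorubicin in WT cells. RNA of 4 of the 5 ring genes fell, both acetyltransferase genes rose, and securin and separase RNA moved in opposite directions. Of the 10 genes, 3 rose and 5 fell at an adjusted p under 0.05 in edgeR's quasi-likelihood test, with a median log2 fold change of -0.31. The background was wide: of 12255 genes tested, 57.4% were called in this comparison, 29.3% higher and 28.1% lower, with a median of 0.01. In bulk RNA, fewer cells of a cell cycle stage and less RNA per cell cannot be told apart. Log2 fold changes, with n = 2 libraries per group, are given with the SE from the model of all 8 libraries. Levels are CPM scaled by TMM factors, which suit comparison of 1 gene between libraries and not of different genes.

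Stag1, one of the paired STAG subunits, stood at 40.1 and 39.0 CPM in WT control libraries A and B and at 21.1 and 19.6 CPM in the treated ones. The treated libraries were far below the controls, and the log2 fold change was -0.96 ± 0.09 (edgeR adjusted p = 7.57e-09). Stag2, its paralog on the X chromosome, was at 119 and 105 CPM in control and 119 and 114 CPM in treated libraries. These overlapped, and Stag2 did not pass (0.06 ± 0.08, adjusted p = 0.501). Within each library, the count ratio of Stag1 to Stag2 was 0.338 and 0.372 in WT control and 0.178 and 0.171 in treated libraries, so the balance between these genes shifted toward Stag2.

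Rad21, the subunit that separase cleaves, went from 113 and 122 CPM to 70.3 and 66.9 CPM. It fell by 41.6% (log2 fold change -0.77 ± 0.07, adjusted p = 8.19e-09), with no overlap between the groups. Smc3, the subunit that the ESCO enzymes acetylate, was at 48.3 and 47.5 CPM in control and 32.5 and 34.0 CPM in treated libraries (-0.53 ± 0.08, adjusted p = 6.99e-06). Smc1a, its X-linked partner in the ring, showed the smallest fall among the called ring genes, from 19.7 and 19.99 CPM to 15.6 and 15.2 CPM (-0.36 ± 0.10, adjusted p = 0.00256). Wapal, whose product releases cohesin from DNA, was at 22.0 and 21.2 CPM in control and 19.1 and 17.1 CPM in treated libraries. The treated values were lower, but Wapal missed the threshold narrowly (-0.25 ± 0.11, adjusted p = 0.0503). Of 16 alternative fits, 7 called Wapal and the others did not, with log2 fold changes between -0.33 and -0.18. It was called with limma-voom (adjusted p = 0.0497), with upper-quartile scaling (0.0198) and with a replicate block (0.0233). It was also called without WT doxorubicin library A (adjusted p = 0.0358), mutant control A (0.0471) or mutant control B (0.0467), and when only the WT libraries were fitted (0.0487).

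Esco1 rose from 82.3 and 80.6 CPM to 111 and 113 CPM (log2 fold change 0.46 ± 0.07, adjusted p = 8.57e-06). Its libraries lay close together within each group and far apart between groups. Esco2 was at 44.0 and 38.5 CPM in WT control and 46.2 and 55.4 CPM in treated libraries, a rise of 23.4% (0.30 ± 0.09, adjusted p = 0.00753). The groups lay next to each other without overlap, and the call was lost without WT control library B (log2 fold change 0.21, adjusted p = 0.136) or WT doxorubicin library B (0.16, adjusted p = 0.166).

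Pttg1 had the largest change of the 10 genes in WT cells. It stood at 8.69 and 9.92 CPM in control and 28.4 and 26.5 CPM in treated libraries, and rose 2.94-fold (log2 fold change 1.55 ± 0.10, adjusted p = 2.26e-11). Espl1, whose product securin holds inactive, fell from 2.04 and 2.32 CPM to 0.927 and 0.845 CPM (-1.30 ± 0.26, adjusted p = 0.000198). Its counts were low, at 55 and 79 in control and 28 and 27 in treated libraries. The count ratio of Pttg1 to Espl1 within a library was 4.25 and 4.28 in WT control and 30.6 and 31.4 in treated libraries. Securin RNA thus rose against separase RNA in each treated WT library. The proliferation marker gene Mki67 went from 116 and 123 to 32.8 and 36.1 CPM in the same libraries, and its part in the changes of the cell cycle members was not tested.

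**Figure D1:**
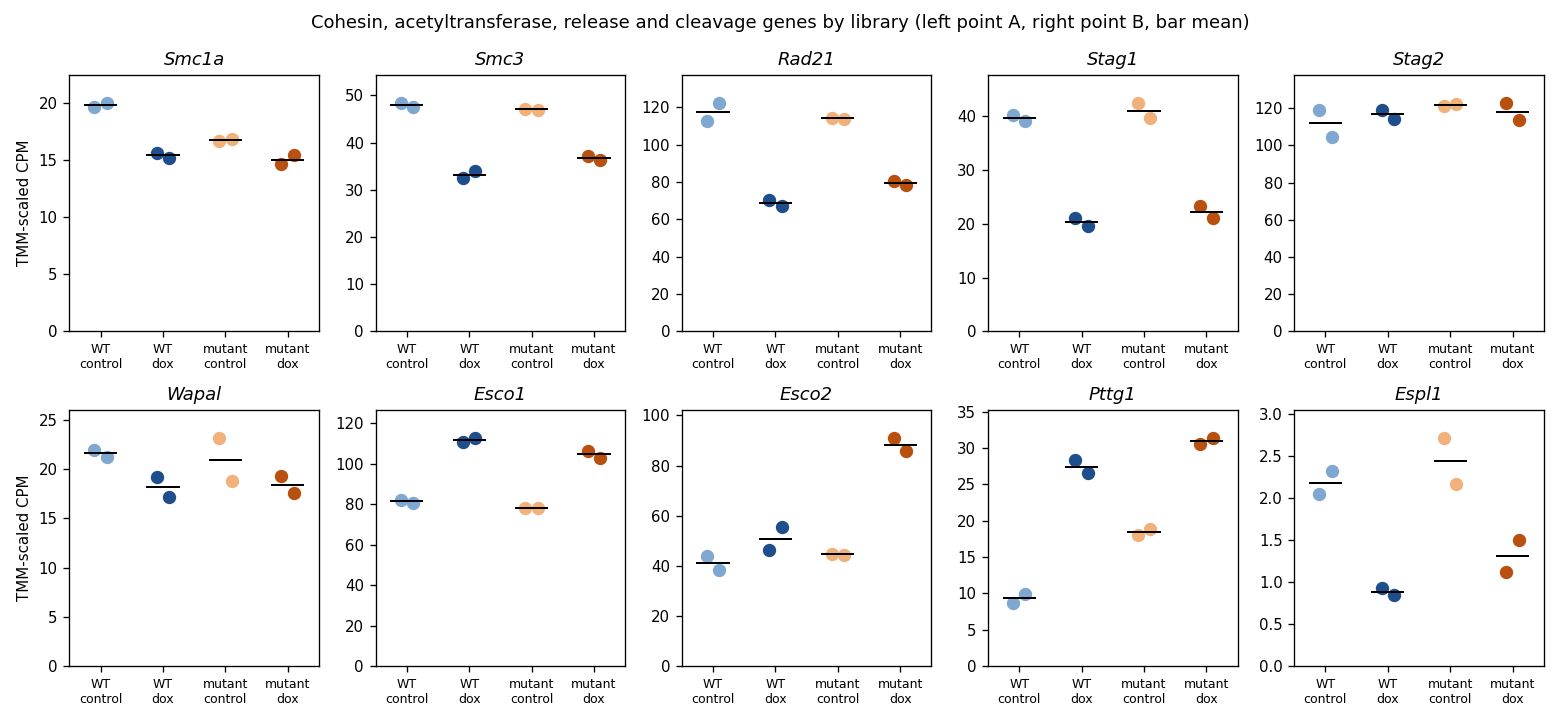
TMM-scaled CPM of the 10 genes (y axis, each panel from 0 on its own scale) in the 4 groups of 2 libraries (dox is doxorubicin; left point library A, right point B, bar the mean). Rad21, Smc3 and Stag1 are lower and Esco1 and Pttg1 higher in the treated libraries of both genotypes, and treated mutant libraries have the highest Esco2, at 91.0 and 85.7 CPM.

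The same question in mutant cells gave 3 genes that rose and 4 that fell, with a median log2 fold change of -0.17. Here 54.2% of all genes tested were called, 28.3% higher and 25.9% lower, with a median of 0.01. Stag1 was at 42.4 and 39.7 CPM in mutant control and 23.3 and 21.1 CPM in treated libraries (-0.89 ± 0.09, adjusted p = 3.28e-08). Stag2 was at 121 and 122 CPM against 123 and 114 CPM, with overlapping libraries (-0.04 ± 0.08, adjusted p = 0.679). The count ratio of Stag1 to Stag2 went from 0.350 and 0.325 to 0.190 and 0.186, a shift in the same direction as in WT cells.

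Rad21 fell from 115 and 114 CPM to 80.5 and 78.5 CPM (-0.52 ± 0.07, adjusted p = 2.98e-06), and Smc3 from 47.1 and 47.0 CPM to 37.2 and 36.4 CPM (-0.35 ± 0.08, adjusted p = 0.000705). Smc1a was at 16.7 and 16.9 CPM in control and 14.6 and 15.4 CPM in treated libraries and did not pass (-0.16 ± 0.10, adjusted p = 0.186). Wapal did not pass either, at 23.1 and 18.7 against 19.3 and 17.5 CPM (-0.19 ± 0.11, adjusted p = 0.162). Its 2 control libraries lay on either side of treated library A. Without mutant control library B it was called (-0.33, adjusted p = 0.0400).

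Esco1 rose from 77.9 and 78.2 CPM to 107 and 103 CPM (0.42 ± 0.07, adjusted p = 2.66e-05), close to its response in WT cells. Esco2 rose from 44.6 and 44.5 CPM to 91.0 and 85.7 CPM, an increase of 98.1% (0.99 ± 0.09, adjusted p = 7.40e-09). The treated mutant libraries had more Esco2 RNA than any other library. The count ratio of Esco2 to Esco1 was 0.573 and 0.569 in mutant control and 0.854 and 0.833 in treated mutant libraries, while in WT cells it was 0.534 and 0.477 in control and 0.417 and 0.492 in treated libraries.

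Pttg1 rose from 18.01 and 18.9 CPM to 30.5 and 31.3 CPM, or 1.68-fold (0.75 ± 0.10, adjusted p = 8.69e-07). Espl1 fell from 2.71 and 2.17 CPM to 1.12 and 1.50 CPM (-0.89 ± 0.25, adjusted p = 0.00465), from 79 and 64 counts to 28 and 38. The fall of Espl1 missed the threshold without mutant control library A (-0.73, adjusted p = 0.0602) or mutant doxorubicin library A (-0.70, adjusted p = 0.0659). The count ratio of Pttg1 to Espl1 went from 6.65 and 8.70 to 27.3 and 20.9. Mki67 went from 118 and 114 to 52.2 and 54.3 CPM in these libraries.

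**Figure D2:**
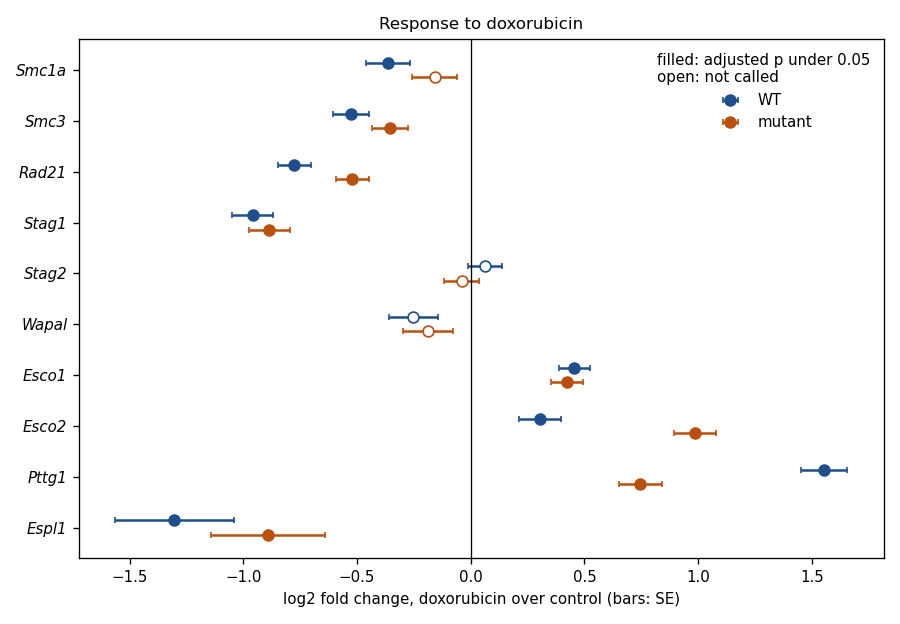
Log2 fold change of doxorubicin over control (x axis) for each gene in WT (blue) and mutant (orange) cells, n = 2 libraries per group. Bars are the SE from the model of all 8 libraries, and points are filled where the adjusted p was under 0.05. The Esco2 response is 0.30 in WT and 0.99 in mutant cells, and that of Pttg1 1.55 and 0.75.

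The series title asks which expression depends on Dino, and the difference between the responses (mutant minus WT) bears on it. It passed the test for 2 of the 10 genes, Esco2 upward and Pttg1 downward, where 0.0734% of all genes tested were called, 0.0326% higher and 0.0408% lower. That these genes pass was known when the 10 were chosen, so the count gives no independent support. The difference was 0.68 ± 0.13 for Esco2 (edgeR adjusted p = 0.0425) and -0.81 ± 0.14 for Pttg1 (adjusted p = 0.0282). Mki67, outside the 10, was also called, in the direction of Esco2 (0.67 ± 0.11, edgeR adjusted p = 0.0187). Its part in the Esco2 difference was not tested. The genotypes also differed in sex-linked expression: Xist was at 0.232 to 0.376 CPM in the WT libraries. In mutant libraries A and B it was at 254 and 212 CPM in control and 575 and 469 CPM with doxorubicin. This rise of Xist in mutant cells was called (1.16 ± 0.09, edgeR adjusted p = 5.39e-10), and its cause was not tested. The difference between the Xist responses was not called (1.03 ± 0.56). The Y-linked Ddx3y, Eif2s3y, Kdm5d and Uty stood in mutant control libraries at 13.6%, 15.5%, 11.8% and 13.1% of their WT level. Xist RNA comes from female cells and Y-linked RNA from male cells, and the mutant libraries held both. The labels give neither the sex of the embryos nor whether embryos were pooled, so an effect of Dino cannot be told apart from embryo sex or from a mixture of embryos.

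Both calls were close to the threshold. For Esco2 the call was lost without any one of the 4 control libraries, without WT doxorubicin library A, or without either treated mutant library, with a difference between 0.55 and 0.78 and an adjusted p between 0.0700 and 0.314. It was also lost with limma-voom (adjusted p = 0.0705) and with a filter of at least 5 CPM in 2 libraries (0.0670). Without WT doxorubicin library B, the higher of the treated WT pair, it was 0.81 (adjusted p = 0.00391). For Pttg1 it was lost without any one of the 4 control libraries or either treated mutant library, with a difference between -0.91 and -0.72 and an adjusted p between 0.0700 and 0.231. The direction held in all 8 of these fits for each gene.

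For the other 8 genes the difference did not pass. Rad21 had 0.25 ± 0.10 (unadjusted p = 0.0221, adjusted p = 0.744), Smc3 0.17 ± 0.11, Smc1a 0.21 ± 0.14, Espl1 0.41 ± 0.37 and Stag1 0.07 ± 0.13. Stag2 had -0.10 ± 0.11, Wapal 0.07 ± 0.15 and Esco1 -0.03 ± 0.10. The SE was widest for Espl1, which had 27 to 79 counts per library. None of these values shows that the responses were alike.

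The genotypes were then compared directly, which uses the same libraries again: the difference between the responses is the mutant to WT difference under doxorubicin minus that in control cells. In control cells 1 of the 10 genes was called, against 5.92% of all genes (2.75% higher and 3.17% lower). This was Pttg1, at 8.69 and 9.92 CPM in WT and 18.01 and 18.9 CPM in mutant control libraries (log2 fold change 0.98 ± 0.10, edgeR adjusted p = 1.09e-06). With doxorubicin Pttg1 was at 28.4 and 26.5 CPM in WT and 30.5 and 31.3 CPM in mutant libraries and did not pass (0.17 ± 0.09, adjusted p = 0.318). The order of the Pttg1 groups was WT control, mutant control, treated WT and treated mutant, and the last pair did not differ beyond the test.

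Under doxorubicin 1 of the 10 genes was called, against 7.74% of all genes (3.92% higher and 3.82% lower), and it was Esco2. Esco2 was at 46.2 and 55.4 CPM in treated WT and 91.0 and 85.7 CPM in treated mutant libraries (0.80 ± 0.09, adjusted p = 3.17e-06). In control cells it was at 44.0 and 38.5 against 44.6 and 44.5 CPM and did not pass (0.11 ± 0.09, adjusted p = 0.646). Both the control Pttg1 call and the treated Esco2 call held in all 16 alternative fits. Rad21, at 70.3 and 66.9 CPM in treated WT and 80.5 and 78.5 CPM in treated mutant libraries, missed the threshold (0.21 ± 0.07, adjusted p = 0.0881). Mki67 was higher in treated mutant than in treated WT libraries (0.63 ± 0.08, adjusted p = 1.32e-05), and its part in the Esco2 and Rad21 values was not tested.

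Smc1a and Stag2 lie on the X chromosome, and Xist, which silences one X in female cells, separated the genotypes. Smc1a was at 19.7 and 19.99 CPM in WT control and 16.7 and 16.9 CPM in mutant control libraries, lower in mutant cells but not called (-0.24 ± 0.10, adjusted p = 0.179). Stag2 had 0.12 ± 0.08 (adjusted p = 0.496). A separate list of X-linked genes known to escape silencing held Kdm5c, Kdm6a, Eif2s3x and Ddx3x, and neither Smc1a nor Stag2. All 4 were higher in mutant control libraries, with a median log2 fold change of 0.62. Kdm5c, for example, was at 33.7 and 30.3 CPM in WT and 50.2 and 49.4 CPM in mutant control libraries (0.64 ± 0.11, adjusted p = 0.000530). Smc1a stood on the other side of 0 from these 4 genes in control cells. The difference between Smc1a and these genes was not tested.

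**Figure D3:**
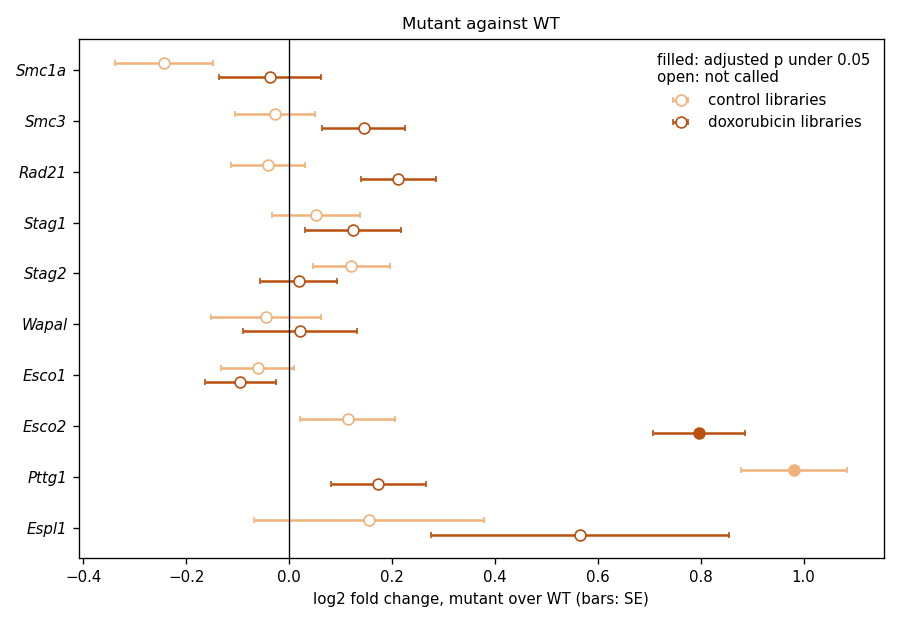
Log2 fold change of mutant over WT (x axis) for each gene in control (light orange) and doxorubicin (dark orange) libraries, n = 2 libraries per group. Bars are the SE from the model of all 8 libraries, and points are filled where the adjusted p was under 0.05. Pttg1 is called in control libraries at 0.98 and Esco2 in treated libraries at 0.80, and the other values are open.

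The rest of the cohesin pathway was described from a list of 20 further genes: the loader and ring regulators, the replication fork factors that help establish cohesion, and the meiotic subunits. Of these, 18 could be tested, and in WT cells 10 fell, 1 rose and 7 were not called, with a median log2 fold change of -0.68. Over all genes tested, 28.1% were called lower and 29.3% higher in this comparison. Sgol2, which encodes a shugoshin that protects centromeric cohesin, went from 121 and 114 CPM to 55.2 and 58.1 CPM (-1.05 ± 0.07), and its relative Sgol1 had -0.80 ± 0.11. Pds5b, a ring regulator, had -0.88 ± 0.08, and Ctcf, whose product stops cohesin at loop anchors, -0.55 ± 0.07. Tipin, a replication fork protection gene, was the gene that rose (0.32 ± 0.07). Nipbl, the loader, had -0.06 ± 0.10 and did not pass.

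In mutant cells 9 of the 18 fell and 2 rose, with a median of -0.40, where 25.9% of all genes tested were called lower and 28.3% higher. Pds5b had -0.81 ± 0.08, Sgol2 -0.55 ± 0.07, Ctcf -0.45 ± 0.07 and Tipin 0.41 ± 0.07. The other gene called higher was the meiotic Smc1b, with 10 counts in each treated mutant library and 0 to 4 in the others. It passed the filter on low counts only through the group where it was high, so its call supports nothing. The count that rose was 1 without any one of the mutant libraries, and the meiotic Rad21l had no count in any library. The difference between the responses was called by edgeR for 0 of the 18, for 3 at an unadjusted p under 0.05, for 1 with DESeq2, for 0 with limma-voom and for 1 without WT doxorubicin library B. Sgol2 came closest (0.51 ± 0.10, adjusted p = 0.0538), at 130 and 124 CPM in mutant control and 85.8 and 88.1 CPM in treated mutant libraries. Under doxorubicin Sgol2 (0.62 ± 0.07) and Sgol1 (0.48 ± 0.11) were higher in mutant than in WT libraries, and Smc1b was called with the same limit. These 3 of the 18 include Smc1b, whose call supports nothing, so that Sgol2 and Sgol1 remain. Over all genes tested, 3.92% were called higher there. The count of 3 became 1 without WT doxorubicin library A or mutant doxorubicin library A. In control libraries edgeR called 0 of the 18 between the genotypes, 1 at an unadjusted p under 0.05.

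The related ring complexes were described from a further list. It held 15 genes of condensin, which compacts mitotic chromosomes, and of SMC5/6, a repair complex. In WT cells 11 fell and 2 rose (median -0.69), where 28.1% of all genes tested were called lower and 29.3% higher. In mutant cells 11 fell and 1 rose (median -0.58), where 25.9% were called lower and 28.3% higher. The count that rose was 1 in WT cells without WT control library B or WT doxorubicin library B, and 2 in mutant cells without mutant control library A. The condensin II gene Ncapg2 had -1.40 ± 0.07 in WT and -0.98 ± 0.07 in mutant cells. Smc6 had -0.998 ± 0.07 and -0.82 ± 0.07, and Smc4 -0.80 ± 0.07 and -0.65 ± 0.07. Smc2 had -0.78 ± 0.07 in WT cells and Smc5 -0.62 ± 0.07 in mutant cells. Nsmce2, a SUMO ligase subunit of SMC5/6, rose in both genotypes (0.59 ± 0.11 and 0.61 ± 0.11). Eid3, at 1 to 29 counts per library, was called higher in WT cells (1.87 ± 0.63). It passed the filter on low counts only with the help of treated libraries, where it was high, so its call supports nothing. The difference between the responses was called by edgeR for 0 of the 15, for 2 at an unadjusted p under 0.05, for 1 with DESeq2, for 0 with limma-voom and for 1 without WT doxorubicin library B. Under doxorubicin Ncapg2 (0.37 ± 0.07), Smc2 (0.28 ± 0.07), Ncapg (0.37 ± 0.11) and Ncaph (0.47 ± 0.14) were higher in mutant than in WT libraries. Over all genes tested, 3.92% were called higher there. DESeq2 and limma-voom each called 2 of the 15 there. The count was also 2 without any one of the control libraries or of the WT doxorubicin libraries, and 1 without mutant doxorubicin library A.

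Securin and separase are controlled by the anaphase-promoting complex with Cdc20 or Fzr1, and separase also by Cdk1 with cyclin B1. The list described here held 6 genes: Cdc20, Fzr1, Cdk1, Ccnb1, Plk1 and Aurkb. Of these 6, 4 fell in WT cells (median -0.84) and 5 in mutant cells (median -0.73), and none rose. Over all genes tested, 28.1% in WT and 25.9% in mutant cells were called lower, and 29.3% and 28.3% higher. Cdk1 had -1.17 ± 0.09 in WT and -0.68 ± 0.09 in mutant cells, and Ccnb1 -1.21 ± 0.09 and -0.78 ± 0.08. In the same order Plk1 had -1.81 ± 0.24 and -1.20 ± 0.24, and Aurkb -0.51 ± 0.10 and -0.37 ± 0.10. Fzr1, at 10 to 36 counts per library, was called lower in mutant cells (-1.10 ± 0.36, edgeR adjusted p = 0.0133) and not in WT cells (-0.32 ± 0.32). Cdc20 was not called in either genotype. Under doxorubicin 2 of the 6 were called higher in mutant than in WT libraries, Cdk1 (0.65 ± 0.09) and Ccnb1 (0.43 ± 0.09). Over all genes tested, 3.92% were called higher there. In control libraries 0 of the 6 were called between the genotypes. The difference between the responses was called by edgeR for 0 of the 6, for 2 at an unadjusted p under 0.05, for 0 with DESeq2 or limma-voom, and for 1 without WT doxorubicin library A or B. The rise of Pttg1 thus ran against the fall of Espl1, Cdk1 and Ccnb1 in the same libraries.

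**Figure D4:**
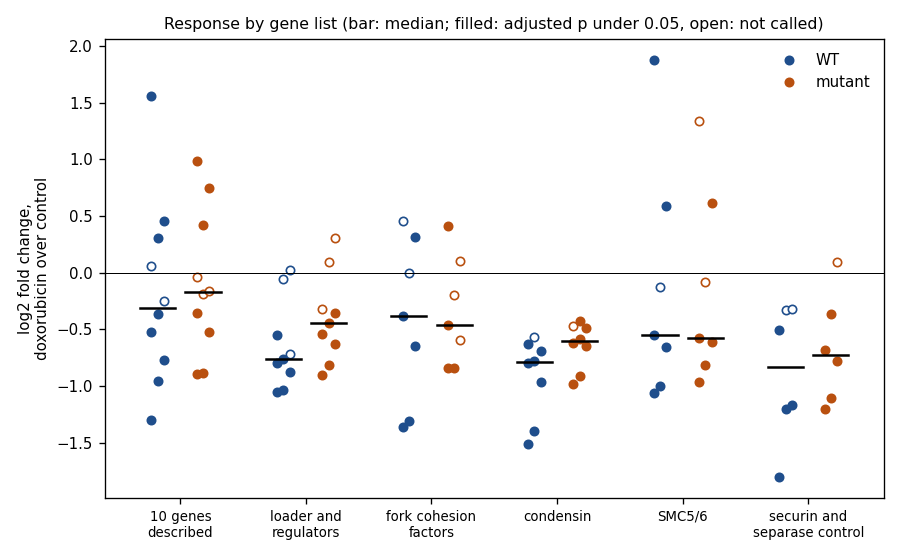
Log2 fold change of doxorubicin over control (y axis) of single genes (points) in 6 lists, in WT (blue) and mutant (orange) cells, filled where the adjusted p was under 0.05, with a bar at the list's median. Condensin points all lie below 0, while the 10 genes described range from -1.30 to 1.55 in WT cells.

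Among the members themselves, levels across the 8 libraries fell into sets. Smc3, Rad21, Stag1 and Espl1 had Pearson's r between 0.93 and 0.99 with each other on log2 CPM, and Esco1 had r between -0.98 and -0.97 with each of these 4. Stag2 had r between -0.46 and 0.35 with the other members. Smc1a and Pttg1 had r = -0.98. All of these rest on the same 8 libraries, which differ in treatment and genotype, and they were not split by either.

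Among 6994 other genes averaging 4 CPM or more, those whose levels over the 8 libraries were most like Esco2 were Map3k1 (r = 0.98), Rnd3, Fam111a, Tomm34 and Styx (r from 0.96 to 0.97). Map3k1 averaged 96.2 and 109 CPM in WT and 99.9 and 130 CPM in mutant cells, control before treated. The genes most like Pttg1 were Lrrc15 (r = 0.99), Abcg1, Mical3, Mms19 and Pxdc1 (r from 0.98 to 0.99). Lrrc15 averaged 13.4 and 34.3 CPM in WT and 25.4 and 44.9 CPM in mutant cells, an order of groups that its choice as the gene most like Pttg1 fixes. Those most like Espl1 were Zmat1, Fbxo21, Edn1, Cenpi and Diap3 (r from 0.98 to 0.99).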

How the data were processed

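Per the labels, RNA from 8 libraries was sequenced; they name a capture kit for coding RNA as well as sequencing of 3' ends. The authors deposited raw counts per gene name, made with Bowtie2 on mm9 and HTSeq per the submitters' processing notes. Annotation, strand setting and handling of multi-mapping reads are not given in the sources used here. No member shared exon bases with another gene in GENCODE M21 (GRCm38), except Stag2 with 28 bases.

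Genes passing filterByExpr (minimum count 10, minimum total 15; 12255 of 30419 names) were scaled by TMM and fitted with edgeR 4.0.16 in R 4.3.3, in a quasi-likelihood model of the 4 groups over all 8 libraries (4 residual degrees of freedom; limma 3.58.1 and DESeq2 1.42.0 for alternatives). Adjusted p-values are Benjamini-Hochberg values over the whole set of tested genes, two-sided, as 1 family per comparison. SE is the log2 fold change over the square root of F. Likeness used log2(CPM + 0.5). The model was tested on simulated data. Alternatives were other scaling (DESeq2, upper quartile), DESeq2, limma-voom, other filters, a replicate block, fits restricted to the groups in a comparison, and dropping single libraries. Chi-square per degree of freedom between libraries A and B, where repeat sequencing of 1 library would give about 1, was 5.71 to 18.9 (WT doxorubicin). The members and lists were chosen with earlier results of these data known. Named genes were all members, and the 4 called genes of smallest adjusted p per further list and comparison. Also named were the 5 most alike genes for Esco2, Pttg1 and Espl1, and checks. Kdm5c, Nipbl, Tipin in WT, Nsmce2, Eid3, Pdgfra, Pdgfrb, Cdk1, Ccnb1 and Cdc20 were named after their values were seen. The same holds for Fzr1, Plk1, Aurkb, Cd14, Ptprc and Csf1r.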

Additional observations from a re-analysis of the deposited data

Results flagged for a closer look

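For Esco2 the mutant and WT responses to doxorubicin differed by 0.68 on the log2 scale in the interaction term (edgeR adjusted p = 0.0425). Its level rose in both treated mutant libraries by more than in either treated WT library. For Pttg1 the interaction term was -0.81 (adjusted p = 0.0282), with mutant control libraries already higher than WT control libraries. In each case the genotypes also differed in Xist and in Y-linked RNA, whose part was not tested.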

How the results depend on the processing

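Members called for the difference between the responses, 1 higher and 1 lower, ranged from 0 to 1 in each direction when single libraries were left out. The higher count was 0 with limma-voom (Esco2 adjusted p = 0.0705) and 0 with a filter of at least 5 CPM in 2 libraries (0.0670). With the library letter as a replicate block the edgeR adjusted p was 0.0456 for Esco2 and 0.0262 for Pttg1, and the Wapal call in WT cells was the 1 member call it changed; the labels do not pair the letters, whose deviations correlated between -0.10 and 0.20. Members higher in mutant doxorubicin libraries numbered 2 at an adjusted p under 0.10, where Rad21 was added. Some values without a call changed sign when 1 library was left out; ranges are over the 8 fits that each leave out 1 library. In the responses, Stag2 ranged from -0.0285 (without WT control B) to 0.149 in WT cells and from -0.0942 to 0.0143 (without mutant doxorubicin B) in mutant cells. In the difference, Wapal ranged from -0.0784 to 0.217, with -0.0784 without mutant control B, -0.0208 without WT doxorubicin B and -0.0086 without mutant doxorubicin A, and Stag1 from -0.0041 (without mutant doxorubicin A) to 0.137. Between control genotypes, Rad21 reached 0.0212 without WT control B, and Wapal ranged from -0.195 to 0.1003 (without mutant control B) and Espl1 from -0.0051 (without mutant control A) to 0.308. Between treated genotypes, Stag2 ranged from -0.0364 to 0.0717, negative without mutant doxorubicin A or WT doxorubicin B (-0.0055). There Wapal had -0.0530 without WT doxorubicin B and -0.0491 without mutant doxorubicin A, and Smc1a ranged from -0.0747 to 9.3e-05 (without mutant doxorubicin A). The cause was not tested. Over all genes the difference was called for 4 higher and 5 lower, and for 12 higher with DESeq2, 2 and 2 with limma-voom, 24 and 24 without a filter, 2 and 3 with the 5 CPM filter, 7 higher with the replicate block, 10 and 8 at an adjusted p under 0.10, and between 0 and 37 higher when single libraries were left out. Espl1 had no value under the 5 CPM filter. Of the control libraries' genotype calls, 337 higher and 389 lower, leaving out single libraries gave as few as 165 and 200, and of the treated, 481 and 468, as few as 261 and 261. Of the 6 genes of securin and separase control, 3 fell in mutant cells under the 5 CPM filter.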
